A study of Mus musculus with 15 samples.

Results

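The respiratory chain and the ATP synthase are described here in group 2 innate lymphoid cells (ILC2s) of the mouse lung, through the nuclear genes that encode their subunits. Members were taken by gene symbol: every gene measured by a feature of its own whose symbol begins with Nduf followed by a, b, c, s or v, with Uqcr, with Cox and a number between 4 and 8, or with Atp5, together with Sdha, Sdhb, Sdhc and Sdhd. This gave 89 of the 22180 genes with such a feature. They comprise 32 subunits of complex I, 4 of complex II, 7 of complex III, 19 subunits and paralogues of complex IV, 17 of complex V, 8 complex I assembly factors whose symbols begin with Ndufaf, and 2 pseudogenes. Ndufb1, Ndufb2, Ndufb4, Ndufs6, Uqcr10 and Cox6c had no feature of their own and are not members, and the subunits encoded by mitochondrial DNA lie outside the rule.

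Complexes I and II pass electrons from NADH and succinate to ubiquinone, complex III passes them on to cytochrome c, and complex IV transfers them to oxygen. Complexes I, III and IV pump protons across the inner mitochondrial membrane, and complex V, the ATP synthase, uses the return flow to make ATP. Lymphocytes at rest draw much of their ATP from this pathway, and ILC2s are lymphocytes without rearranged antigen receptors that respond to the epithelial cytokine IL-33 with IL-5 and IL-13.

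Total RNA was measured on 15 arrays, each labelled as a biological replicate. The 3 neonatal arrays came from untreated mice at 10 days after birth. The effector group held 3 female and 3 male arrays of adults given IL-33 through the nose on 3 days in a row, with cells taken 1 day after the last dose. The naive group held 3 female and 3 male arrays of untreated adults at 8 weeks. The design text speaks of both sexes at both ages. The labels give no sex for a neonatal array, no age in weeks for the effector adults and no strain, sorting gate, batch or number of mice per array, so p-values measure the spread between these arrays. No group is labelled as dosed without IL-33, so dosing itself and IL-33 cannot be told apart. Values are deposited log2 levels, and a difference of 1 is a 2-fold difference. Because each array was scaled as a whole, a member's level is relative to the other transcripts on the array, and in such bulk RNA fewer cells of a type and less RNA per cell cannot be told apart.

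Of the 89 members, 83 were tested, because a gene had to lie above the 40th percentile of its array in at least 3 arrays. Of these, 79 lay above it on all 15 arrays. Cox7b2, Cox8b, Cox8c, Ndufa4l2 and the pseudogenes Atp5c1-ps and Uqcrh-ps1 were not tested. Olfactory, vomeronasal and trace amine receptor genes served as a measure of background, with a 95th percentile of 4.88 on neonatal, 4.63 on effector and 5.46 on naive arrays. The 6 untested members and the tested members Cox4i2 and Ndufs5 averaged no more than this in every condition on the features used. For Ndufs5 this is the feature of its own, since a brighter one shared with the pseudogene Ndufs5-ps averaged 5.32 in neonatal, 6.76 in effector and 6.09 in naive cells. Pairs of replicate arrays had Pearson r values across features of 0.904 to 0.925 in neonates, 0.965 to 0.974 in effector females, 0.962 to 0.969 in effector males, 0.931 to 0.960 in naive females and 0.911 to 0.914 in naive males. Background and spread between arrays thus both followed the groups, and their part in the differences below was not tested. All 13 ILC2 markers with a feature, among them Gata3, Rora, Il7r and Thy1, lay above the background range in the 3 conditions.

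Averaged over the tested members of a complex, the mean of the effector arrays was above that of both other conditions in every complex. The mean log2 level of the 32 complex I subunits was 7.84 ± 0.18 in neonates (SD, n = 3), 8.32 ± 0.15 in effector adults (SD, n = 6) and 8.04 ± 0.14 in naive adults (SD, n = 6). Complex II averaged 7.33 ± 0.13 in neonates, 7.82 ± 0.14 in effector adults and 7.26 ± 0.21 in naive adults. For complexes II, III, IV and V and for the assembly factors the lowest effector array lay above the highest naive array, whereas for complex I the lowest effector array was at 8.12 and the highest naive array at 8.21. The assembly factors averaged 5.94 ± 0.30 in neonates, 6.84 ± 0.18 in effector adults and 6.22 ± 0.22 in naive adults. These means are a description of chosen genes and carry no test.

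**Figure D1:**
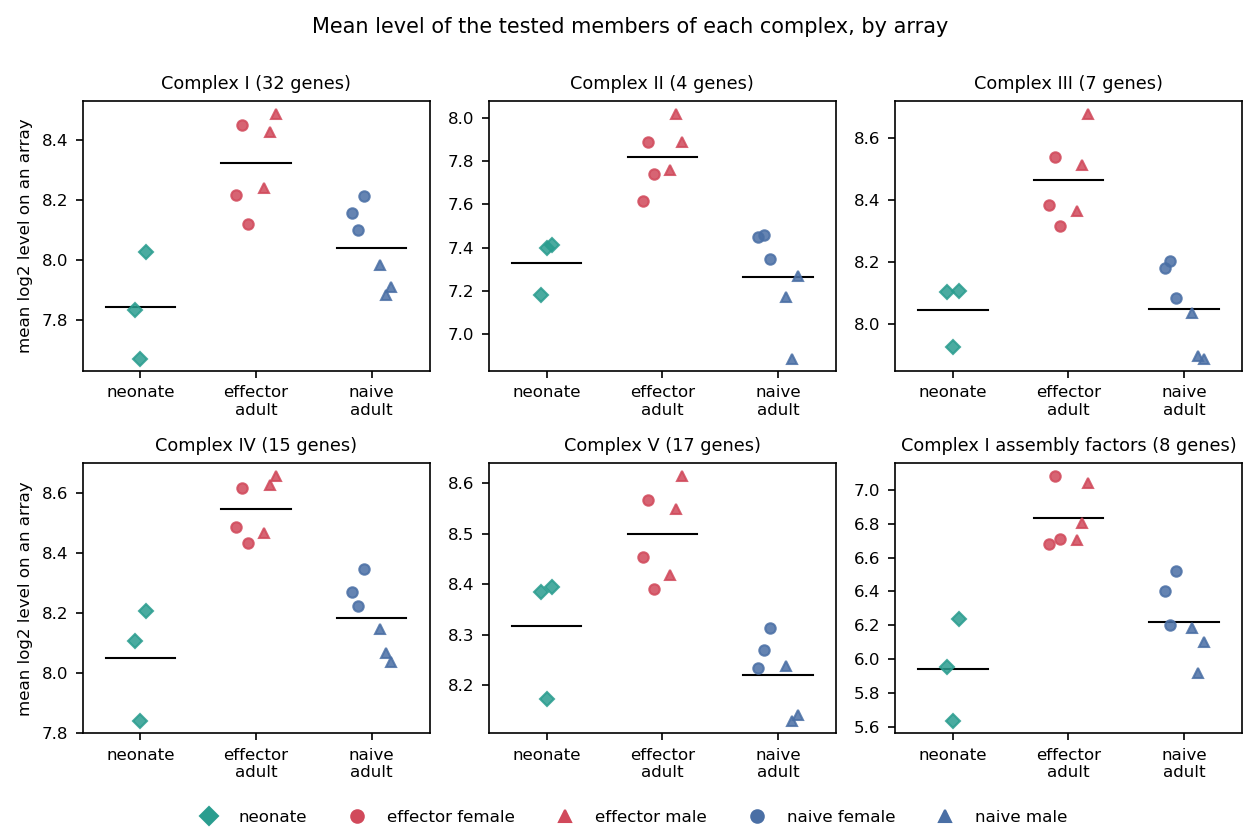
Mean log2 level of the tested members of each complex on each array (vertical axes, which differ between panels), for neonates, effector adults and naive adults (horizontal axes). Points are arrays and bars are condition means. Effector arrays have the highest mean in all 6 panels, and for complex II they lie between 7.62 and 8.02 against 6.89 to 7.46 on naive arrays.

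The effector and naive arrays ask how adult cells differ after IL-33. Of the 83 tested members, 36 were higher in effector cells and 0 were lower (limma, Benjamini-Hochberg adjusted p under 0.05 over 16257 genes), with 49 and 0 at an unadjusted p under 0.05. Over all 16257 genes, 7198 had an unadjusted p under 0.05 in either direction. The higher calls are 43.4% of the tested members, beside 23.7% of all tested genes called higher and 10.9% called lower. The members' median difference was 0.33, beside 0.03 over all genes. On 26 members, or 31.3%, every effector array lay above every naive array, beside 15.2% of all genes. Centring each array on its median moved the median of all genes to 0.17 and that of the members to 0.47, a shift that leaves the gap between them as it was. Further quantile normalization gave a members' median of 0.23. Higher calls made up 68.5% of all calls in the table as deposited and 83% after centring. After centring 50 members were higher and 0 lower, and the share of all genes called was not counted there.

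In complex I, 12 of 32 tested subunits rose, 2 of the 6 core subunits and 10 of the 26 accessory subunits, with a median of 0.28. Ndufv2, an iron-sulphur core subunit of the NADH-binding module, had levels of 8.79, 9.03 and 9.24 on effector arrays (lowest, median and highest of 6), against 7.89, 8.39 and 8.53 on naive arrays. These ranges did not overlap, and Ndufv2 rose by 0.71 ± 0.14 (SE of the fit, n = 6 and 6 arrays, as for all values of this comparison; limma adjusted p = 0.00135). Ndufs8, an iron-sulphur core subunit on the path to ubiquinone, lay between 7.60 and 8.36 on effector arrays with a median of 7.99, against 6.78 to 7.58 on naive arrays with a median of 7.32, and rose by 0.70 ± 0.18. The membrane-arm subunit Ndufc2 had effector levels of 10.62, 10.97 and 11.17, against naive levels of 10.12, 10.32 and 10.51. Its groups were again apart, and it rose by 0.63 ± 0.11 (limma adjusted p = 0.000579).

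The other 9 complex I subunits called were Ndufa11, Ndufb6, Ndufb9, Ndufa9, Ndufa12, Ndufb8, Ndufb3, Ndufb5 and Ndufc1. Ndufa11, a membrane-arm subunit, had the largest difference of the complex at 0.73 ± 0.16, on levels of 7.61, 7.76 and 8.03 in effector cells and 6.38, 7.12 and 7.62 in naive cells. It was no longer called as the mean of its 2 features, at 0.24, because the dimmer one differed by -0.26. The catalytic core was not called throughout: Ndufs1, the largest iron-sulphur subunit, differed by 0.43 ± 0.18, Ndufv1, which binds the flavin that takes electrons from NADH, by 0.23 ± 0.14 and Ndufs7 by -0.11 ± 0.12. Without effector male array 1 or naive male array 2, Ndufs1 was called, at 0.53 and 0.52. The most negative subunit was Ndufs5, at -0.34 ± 0.21, with levels of 3.94, 4.38 and 5.16 on effector arrays and 4.41, 4.78 and 5.48 on naive arrays, within the background range. Its direction is not settled, because the brighter feature shared with Ndufs5-ps differed by 0.68 between effector and naive cells, with no test.

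**Figure D2:**
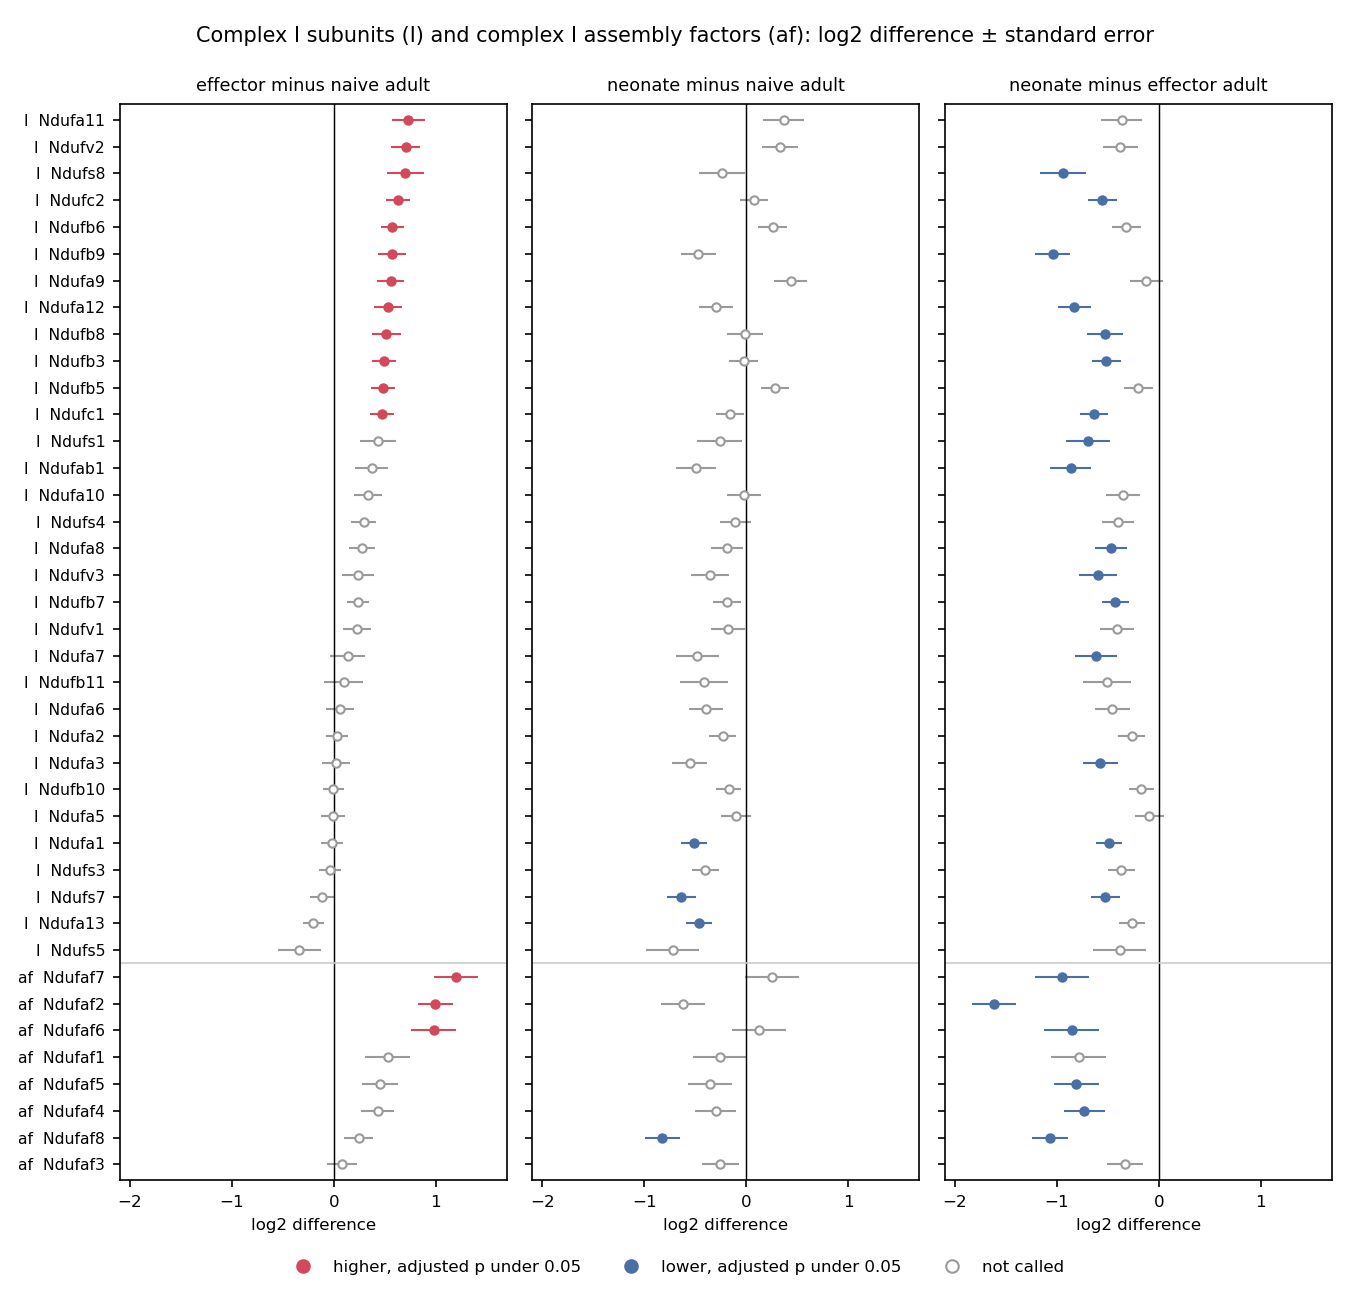
Log2 difference of each complex I subunit (I) and complex I assembly factor (af) between effector and naive adults, neonates and naive adults, and neonates and effector adults (horizontal axes). Points are differences, bars are the standard errors of the fit, and filled points passed an adjusted p under 0.05. Filled points in the first panel are 12 subunits and 3 assembly factors, all above 0, and in the last panel 16 and 6, all below 0.

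Complex I is built in stages by assembly factors that leave the finished enzyme, and 3 of the 8 measured here rose. Ndufaf7, which methylates a core subunit during assembly, had levels of 7.11, 7.60 and 7.76 on effector arrays, against 5.44, 6.40 and 6.86 on naive arrays. Its rise of 1.20 ± 0.22 was the largest of all members (limma adjusted p = 0.000559). Ndufaf2, a paralogue of the subunit Ndufa12 that stands in for it during assembly, lay at 6.21, 6.37 and 6.88 in effector cells, against 5.23, 5.41 and 5.72 in naive cells, where its mean was within the background range. It rose by 1.00 ± 0.18. Ndufaf6 lay at 6.48, 6.97 and 7.34 in effector cells, against 5.65, 5.84 and 6.47 in naive cells, and rose by 0.98 ± 0.22, with neighbouring arrays of the groups almost touching. Ndufaf3 had the smallest difference of the 8, at 0.08 ± 0.14.

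Complex II, succinate dehydrogenase, is also an enzyme of the citric acid cycle and has no subunit encoded by mitochondrial DNA. Its 4 subunits all had positive differences, and 2 rose. Sdhd, which with Sdhc anchors the complex in the membrane and binds ubiquinone, had levels of 7.26, 7.48 and 7.81 on effector arrays, against 6.09, 6.69 and 6.93 on naive arrays. The groups did not overlap, and Sdhd rose by 0.88 ± 0.16 (limma adjusted p = 0.000466). Sdhb, the iron-sulphur subunit, lay at 8.56, 8.71 and 8.96 in effector cells, against 7.82, 8.19 and 8.33 in naive cells, and rose by 0.63 ± 0.12. The flavoprotein Sdha, which oxidises succinate, differed by 0.30 ± 0.12 and missed the threshold (limma adjusted p = 0.0575). Leaving out effector female array 1 or naive female array 2 brought Sdha past it, at 0.35 and 0.36.

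In complex III, 4 of 7 subunits rose and 3 had differences near 0. The Rieske iron-sulphur protein Uqcrfs1, which takes electrons from ubiquinol, had levels of 7.14, 7.36 and 7.57 on effector arrays, against 6.16, 6.58 and 6.87 on naive arrays, and rose by 0.85 ± 0.14 (limma adjusted p = 0.000243). Uqcrq, a small membrane subunit, lay at 7.81, 7.96 and 8.14 in effector cells, against 6.76, 7.20 and 7.54 in naive cells, and rose by 0.81 ± 0.14. In both genes every effector array was above every naive array. The core proteins Uqcrc2 and Uqcrc1 rose by 0.60 ± 0.11 and 0.57 ± 0.14. The smaller subunits Uqcr11, Uqcrb and Uqcrh differed by 0.11, 0.04 and -0.05, so within this complex the called and the uncalled subunits were apart. Cyc1, the cytochrome c1 of this complex, has a symbol outside the rule and rose by 0.65 ± 0.15.

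In complex IV, 8 of 15 tested members rose: 6 of the 10 subunits and 2 of the 5 tested paralogues. Cox5b, a subunit that binds zinc, had effector levels of 9.79, 9.89 and 10.10, against naive levels of 8.17, 8.82 and 9.05. It rose by 1.13 ± 0.14, the largest difference of a subunit in all 5 complexes (limma adjusted p = 2.31e-05). Cox5a lay at 9.97, 10.09 and 10.24 in effector cells, against 8.81, 9.13 and 9.59 in naive cells, and rose by 0.97 ± 0.14. Both genes separated the groups completely, while Cox4i1, with which Cox5a joins the complex early in assembly, overlapped: 11.32, 11.46 and 11.65 in effector cells, against 11.10, 11.27 and 11.37 in naive cells. Cox4i1 differed by 0.22 ± 0.10 and was not called. The most negative subunit was Cox7c, at -0.25 ± 0.14.

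Several complex IV subunits exist as paralogues used in different tissues. Cox6b1 and Cox6b2 both rose, as did Cox7a1 and Cox7a2. Of Cox6a1 and Cox6a2 only Cox6a1 rose, and neither Cox4i1 nor Cox4i2 was called. Cox6b1, the widely used form, rose by 0.66 ± 0.19, and Cox6b2, best known from testis, by 1.07 ± 0.17. Cox6b2 lay at 5.47, 5.76 and 6.01 in effector cells, against 4.26, 4.67 and 5.33 in naive cells, where it was in the background range. Cox7a1, known from heart and muscle, lay at 5.44, 5.77 and 6.06 in effector cells, against 4.79, 4.95 and 5.27 in naive cells, again in the background range, and rose by 0.77 ± 0.15. For both genes the difference is thus measured against a naive level no higher than background.

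The widely used form Cox7a2 rose by 0.33 ± 0.10, while Cox7a2l, which links complexes III and IV into supercomplexes, differed by -0.24 ± 0.12. Cox6a1 rose by 0.36 ± 0.12 and Cox8a by 0.30 ± 0.10. The muscle form Cox6a2 and the lung form Cox4i2 were dim, with means of 5.03 and 4.58 in effector cells and 4.97 and 4.66 in naive cells, and differed by 0.06 ± 0.12 and -0.08 ± 0.16. The calls of Cox7a2, Cox6a1 and Cox8a depended on single arrays. Cox7a2 was lost without effector female array 2 (0.29) or effector male array 3 (0.31). Cox6a1 was lost without effector female array 1 or 2, effector male array 2 or 3, naive female array 2 or 3 or naive male array 2, at 0.32 to 0.36. Cox8a was lost without effector female array 1 or 2, effector male array 2 or 3, naive female array 1 or naive male array 3, at 0.27 to 0.31. After further quantile normalization Cox8a was at 0.18 and Cox6a1 at 0.29, neither called. Ndufa4, whose product is now placed in complex IV, differed by -0.15 ± 0.12.

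**Figure D3:**
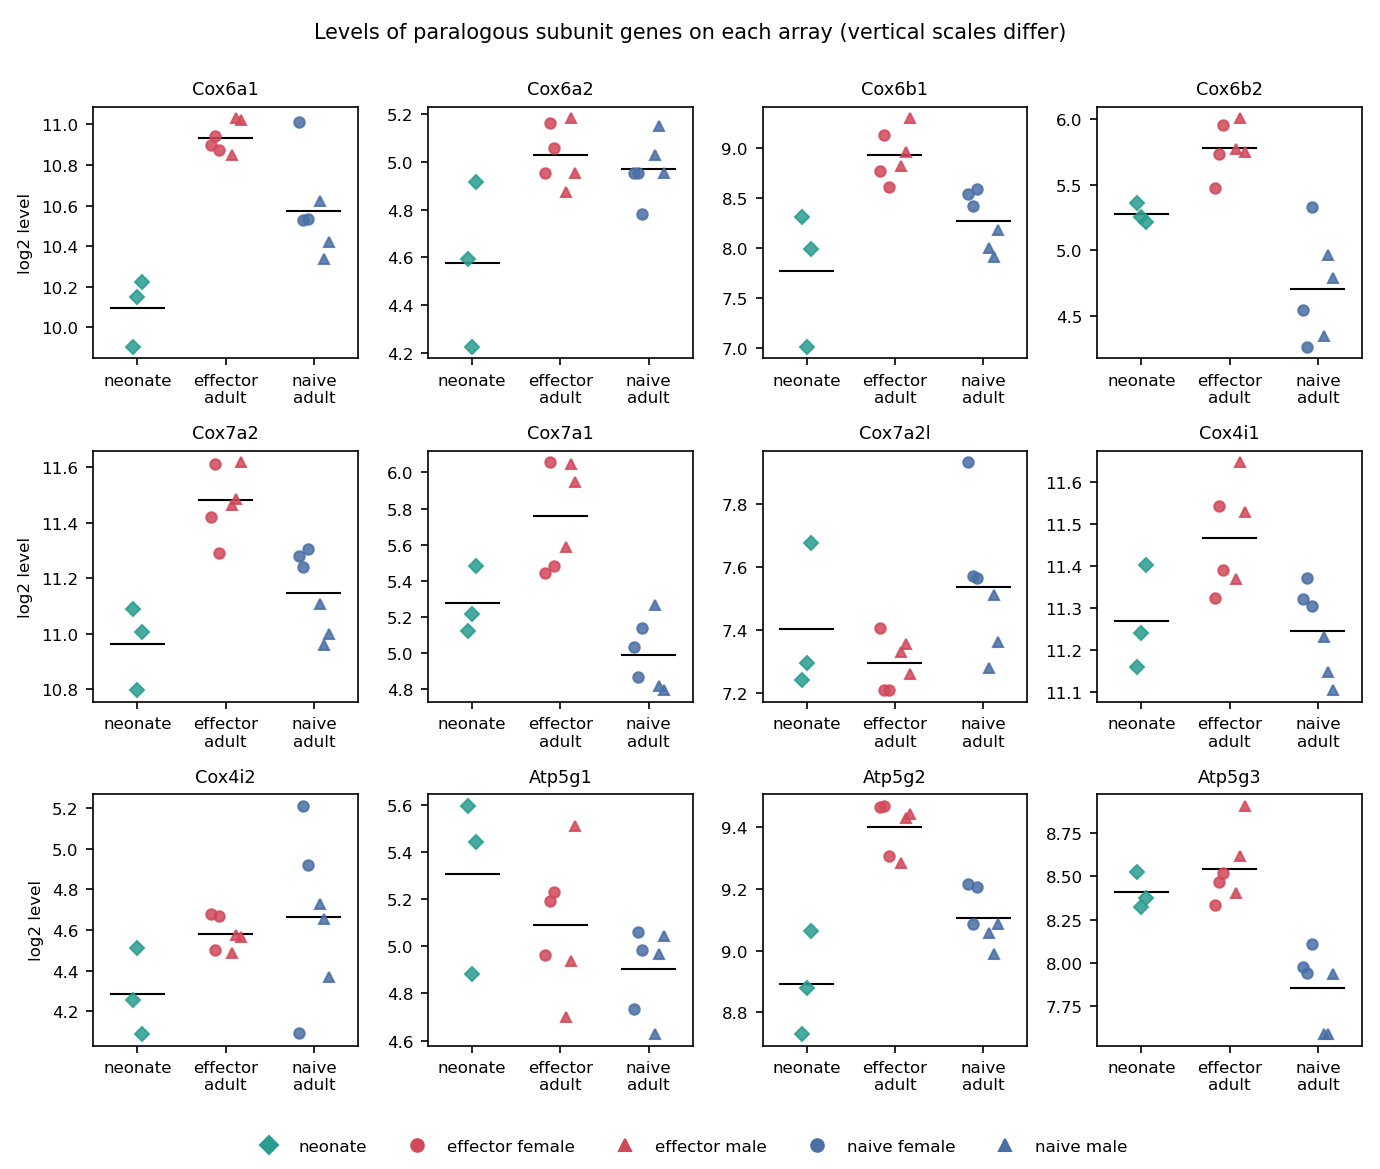
Log2 levels of paralogous genes of complex IV and of the c ring of complex V on each array (vertical axes, which differ between panels and are not comparable between genes), for neonates, effector adults and naive adults. Points are arrays and bars are condition means. Cox6b2 and Cox7a1 separate effector from naive arrays, while Cox7a2l, Cox4i2 and Atp5g1 overlap.

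In complex V, 7 of 17 members rose. The catalytic head, F1, held 3 of them among 5 genes, the c ring 2 of 3, the membrane part 1 of 5 and the peripheral stalk 1 of 4. Atp5b, the catalytic beta subunit, had levels of 11.73, 11.89 and 11.94 on effector arrays, against 10.95, 11.05 and 11.21 on naive arrays, and rose by 0.81 ± 0.10 (limma adjusted p = 1.59e-05). The alpha subunit Atp5a1 lay at 10.79, 11.14 and 11.24 in effector cells, against 10.18, 10.45 and 10.64 in naive cells, and rose by 0.67 ± 0.11. Both head subunits thus stood apart on all arrays, and the delta subunit of F1, Atp5d, rose by 0.52 ± 0.13, with overlapping arrays.

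The c ring, which turns as protons pass, is made of 1 protein encoded by 3 genes that differ in their import sequences. Atp5g3 lay at 8.33, 8.49 and 8.91 in effector cells, against 7.59, 7.94 and 8.11 in naive cells, and rose by 0.68 ± 0.12. Atp5g2 rose by 0.29 ± 0.10, and Atp5g1, in the background range on naive arrays, differed by 0.18 ± 0.16 and was not called. The call of Atp5g2 was lost without any of 8 single arrays (effector female 1 or 2, effector male 2 or 3, naive female 1 or 2, naive male 1 or 2), at 0.27 to 0.30, and after further quantile normalization, at 0.13. The most negative member was Atp5j2, a small membrane subunit, at -0.28 ± 0.19, with a naive mean in the background range.

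Atpif1 encodes the inhibitor that keeps complex V from hydrolysing ATP when it runs in reverse, and its symbol lies outside the rule. Its levels were 9.33, 8.78 and 9.31 on the 3 neonatal arrays, 9.95, 10.12 and 10.32 on effector arrays and 8.82, 9.08 and 9.35 on naive arrays. Effector arrays lay above all others, and neonatal and naive arrays overlapped. The inhibitor rose by 1.02 ± 0.13 in effector against naive cells (limma adjusted p = 2.72e-05) and fell by 0.99 ± 0.16 in neonatal against effector cells (n = 3 and 6; limma adjusted p = 0.000614). Between neonatal and naive cells it differed by 0.03 ± 0.16.

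**Figure D4:**
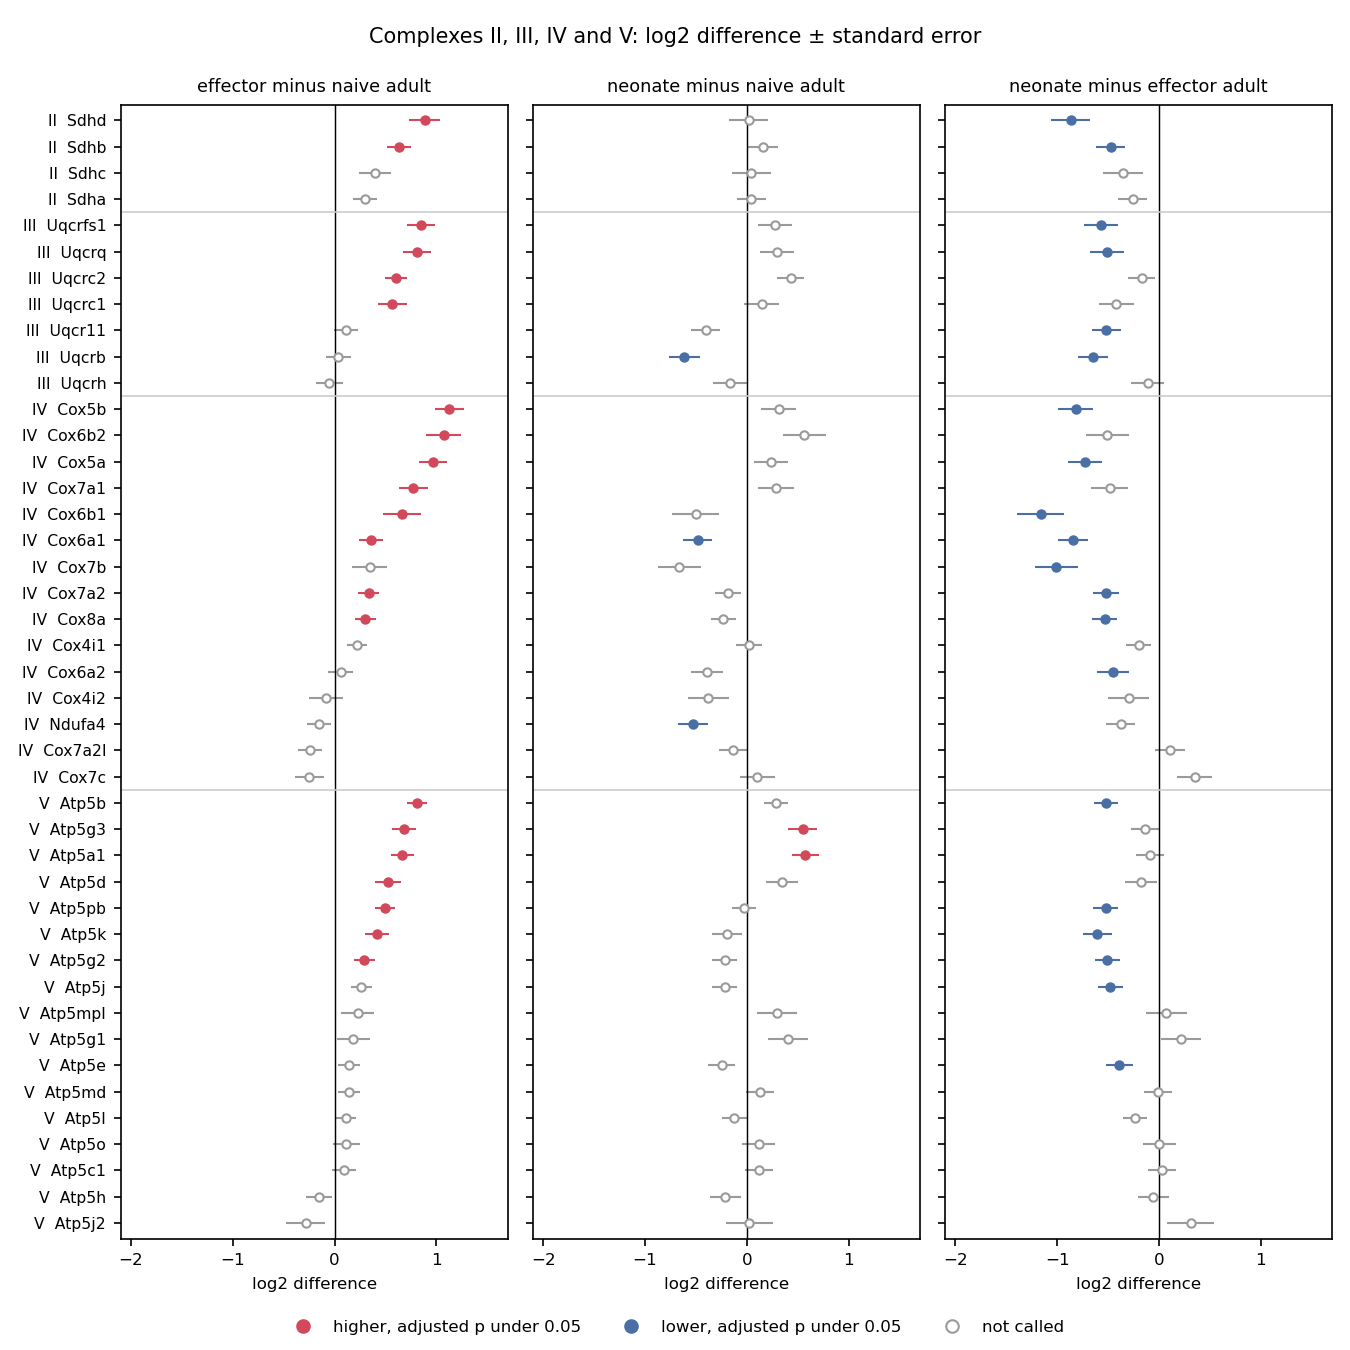
Log2 difference of each tested member of complexes II, III, IV and V between effector and naive adults, neonates and naive adults, and neonates and effector adults (horizontal axes). Points are differences, bars are the standard errors of the fit, and filled points passed an adjusted p under 0.05. In the first panel Cox5b is farthest to the right at 1.13 and no filled point lies below 0.

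Nuclear genes of the respiratory chain are known targets of the transcription factors NRF1 and GABP (also called NRF2), of YY1 and of oestrogen-related receptors. The 250 bases before the start of each gene were searched on both strands in RefSeq promoter sequences of build GRCm38.p6, where 72 members had 77 such windows. The NRF1 core CGCANGCG stood in 26% of member windows, beside 6.76% of all 32851 windows, and the GABP site CCGGAAG in 18.2%, beside 6.91%. The YY1 site AAGATGGCG and the receptor site TCAAGGTCA each stood in 1.3% of member windows, beside 0.606% and 0.387%, and the E-box CACGTG in 9.09%, beside 6.02%. Among members called higher in effector cells, 7 of 31 with a window held the NRF1 core, beside 12 of 39 tested members not called, and 4 of 31 held the GABP site, beside 10 of 39. A match describes these letters in this window and no more.

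The promoters of Sdhd, Cox6a1, Atp5h and Cox5b are shown because the first 3 hold both motifs and Cox5b, the subunit with the largest rise, holds neither. Sdhd and Cox6a1 were called higher and Atp5h, a stalk subunit of complex V, was not, at -0.15 ± 0.12. Capitals mark the NRF1 core and the GABP site on either strand, and each sequence runs 5′ to 3′ on the gene's own strand and ends at the base before its start. The windows are Sdhd at chr9:50603850-50604099 on the minus strand, Cox6a1 at chr5:115348959-115349208 on the minus strand, Atp5h at chr11:115419920-115420169 on the minus strand and Cox5b at chr1:36691237-36691486 on the plus strand.
Sdhd: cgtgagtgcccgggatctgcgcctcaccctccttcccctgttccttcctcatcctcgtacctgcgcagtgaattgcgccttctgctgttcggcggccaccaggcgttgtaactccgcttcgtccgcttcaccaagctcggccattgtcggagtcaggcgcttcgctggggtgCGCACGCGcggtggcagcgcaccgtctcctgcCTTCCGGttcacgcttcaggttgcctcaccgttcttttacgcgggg
Cox6a1: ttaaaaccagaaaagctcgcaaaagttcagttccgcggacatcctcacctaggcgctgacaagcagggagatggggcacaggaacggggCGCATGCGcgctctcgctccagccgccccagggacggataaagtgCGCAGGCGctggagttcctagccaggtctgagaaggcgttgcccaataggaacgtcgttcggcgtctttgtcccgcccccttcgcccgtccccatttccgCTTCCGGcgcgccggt
Atp5h: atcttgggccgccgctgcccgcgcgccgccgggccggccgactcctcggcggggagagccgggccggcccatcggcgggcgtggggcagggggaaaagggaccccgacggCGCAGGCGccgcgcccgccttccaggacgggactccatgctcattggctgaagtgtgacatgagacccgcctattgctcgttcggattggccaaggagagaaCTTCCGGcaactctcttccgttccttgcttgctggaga
Cox5b: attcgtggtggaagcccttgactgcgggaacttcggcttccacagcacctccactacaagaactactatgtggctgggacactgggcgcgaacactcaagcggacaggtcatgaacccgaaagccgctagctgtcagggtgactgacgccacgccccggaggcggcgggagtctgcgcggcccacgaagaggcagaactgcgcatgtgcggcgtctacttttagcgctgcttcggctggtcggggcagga

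The sexes were also compared within the adult groups. In females 9 members were higher in effector cells and 0 lower, or 10.8% of those tested beside 10.2% of all genes called higher. In males 37 were higher and 0 lower, or 44.6% beside 18.7% of all genes. The 9 called in females, which are Ndufaf2, Ndufaf7, Uqcrfs1, Cox5a, Cox5b, Cox6b2, Cox7a1, Atp5a1 and Atp5b, were among those called in males. Over 25 alternatives the female call held in 9 for Cox7a1, in 17 for Ndufaf7 and in 20 to 25 for the others. Cox5b rose by 0.88 ± 0.20 in females and 1.38 ± 0.20 in males, Atp5b by 0.74 ± 0.14 and 0.88 ± 0.14, and Atp5a1 by 0.69 ± 0.16 and 0.65 ± 0.16 (SE, n = 3 arrays per group). Among females 3 members were called without naive female array 2, while 4 were called when effector female array 2 was left out and 5 when effector female array 3 was. Among males 23 were called without effector male array 3.

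The test of the difference between the responses called 0 members (limma), beside 0% of all genes. At an unadjusted p under 0.05 this test held 8 of 83 members, beside 866 of 16257 genes. Its estimates leaned one way: 77 of 83 members had the larger difference in males, with a median of -0.28 for females minus males, beside -0.08 over all genes. Between naive females and males 0 members were called, beside 0.209% of all genes. At an unadjusted p under 0.05 there were 7 of 83 members, beside 1614 of 16257 genes. The level was higher in naive females for 76 of 83 members, with a median of 0.21, beside 0.09 over all genes. Between effector females and males 0 members were called, beside 0.0308% of all genes. Here 0 members had an unadjusted p under 0.05, beside 332 of 16257 genes. The same naive male arrays had the highest background level, 5.74, beside 5.33 in naive females, 4.64 in effector males and 4.63 in effector females, and the part of background in the difference was not tested.

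**Figure D5:**
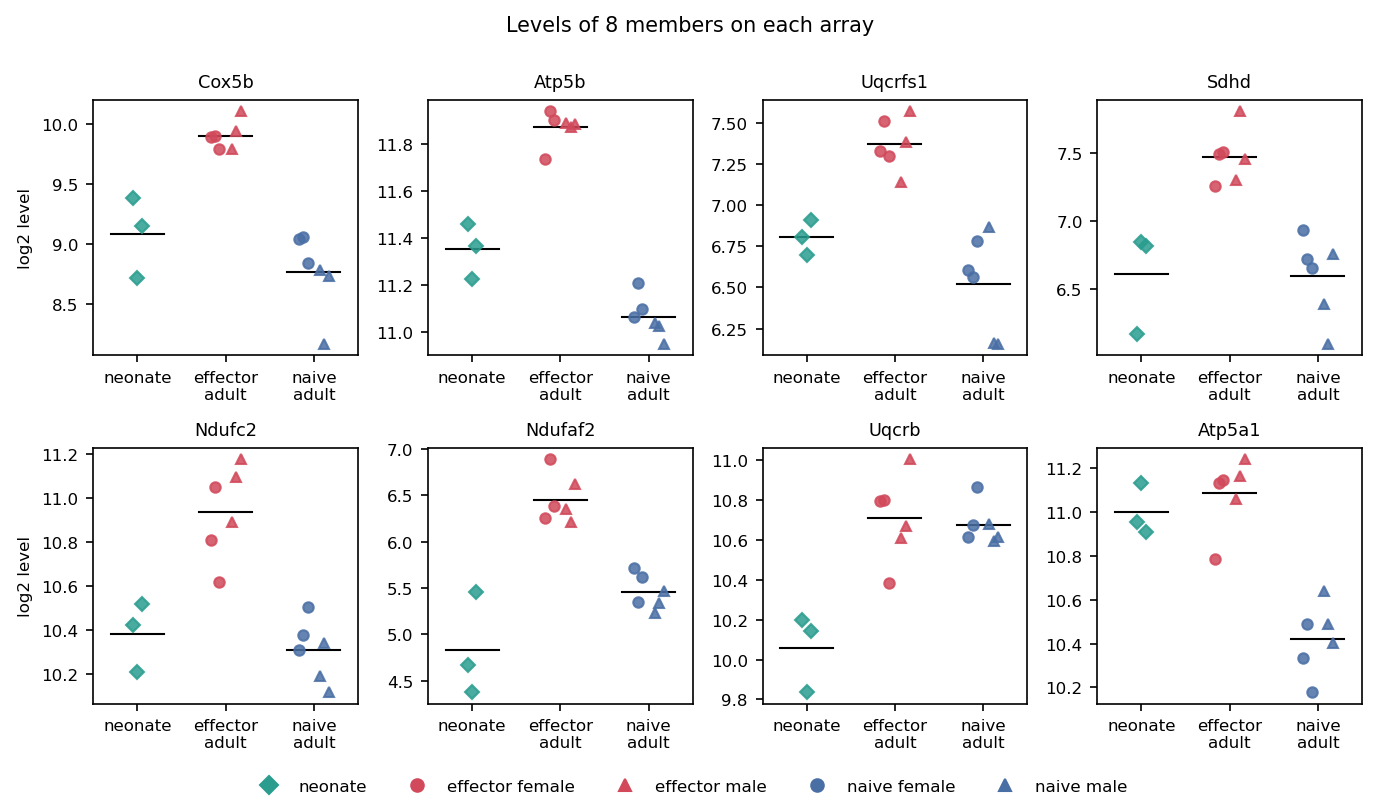
Log2 levels of 8 members on each array (vertical axes, which differ between panels), for neonates, effector adults and naive adults. Points are arrays and bars are condition means. Cox5b, Atp5b, Uqcrfs1, Sdhd and Ndufc2 separate effector from naive arrays, Uqcrb is lowest in neonates, and neonatal Atp5a1 lies with the effector arrays.

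Neonatal cells were set against naive adults, both untreated, to ask how members differ with age. Of 83 members, 2 were higher in neonates and 7 lower, or 2.41% and 8.43%, beside 6.04% and 4.12% of all genes. The median difference was -0.16, beside 0.02 over all genes. On 4 members every neonatal array lay above every naive array and on 10 every one lay below, or 4.82% and 12%, beside 6.88% and 4.1% of all genes. The count depended on the fit. When only the neonatal and naive arrays were fitted, 1 member was called, without neonatal array 1 or neonatal array 2 there were 4, and without neonatal array 3 there were 13.

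Both higher members belong to complex V. Atp5a1 had levels of 10.95, 11.13 and 10.91 on the neonatal arrays, against 10.18, 10.45 and 10.64 on naive arrays, and was higher by 0.58 ± 0.14 (SE, n = 3 and 6, as for all values of this comparison; limma adjusted p = 0.0148). Atp5g3 lay at 8.53, 8.32 and 8.37 in neonates, against 7.59, 7.94 and 8.11 in naive adults, and was higher by 0.55 ± 0.14. The groups did not overlap for either gene. Atp5a1 lost its call without neonatal array 2, at 0.51, and Atp5g3 without neonatal array 1, at 0.49. Atp5b differed by 0.29 ± 0.12 and was not called.

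The lower members were spread over complexes I, III and IV and the assembly factors. Ndufaf8, a small partner of the assembly factor Ndufaf5, had levels of 6.72, 6.19 and 6.90 on neonatal arrays, against 7.12, 7.54 and 7.63 on naive arrays. It fell by 0.82 ± 0.17 (limma adjusted p = 0.00776) and kept its call without any single array. Ndufs7, the core subunit with the last iron-sulphur cluster before ubiquinone, lay at 7.42, 7.58 and 7.87 in neonates, against 8.16, 8.29 and 8.30 in naive adults. It fell by 0.64 ± 0.14 and lost its call without neonatal array 1, at -0.53. Uqcrb, a subunit near the ubiquinone site of complex III, lay at 10.20, 9.84 and 10.14 in neonates, against 10.59, 10.64 and 10.86 in naive adults, fell by 0.61 ± 0.15 and lost its call without neonatal array 2, at -0.50. None of these groups overlapped.

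The small complex I subunit Ndufa1 lay at 10.69, 10.56 and 10.85 in neonates, against 10.92, 11.29 and 11.34 in naive adults, and fell by 0.51 ± 0.13. Ndufa4 fell by 0.53 ± 0.15, Cox6a1 by 0.48 ± 0.15 and the complex I subunit Ndufa13, named to complete the count, by 0.46 ± 0.13. Each of these was lost without several single arrays. Ndufa1 was lost without neonatal array 1 (-0.50) or 2 (-0.44). Ndufa13 was lost without neonatal array 1, naive female array 1 or 2 or naive male array 1, at -0.46 to -0.38. Ndufa4 was lost without neonatal array 2 or 3, naive female array 1 or 3 or naive male array 2, at -0.54 to -0.44. Cox6a1 kept its call only without naive female array 2 or naive female array 3 and was otherwise between -0.55 and -0.39. No member of complex II was called, and Sdha differed by 0.05 ± 0.14.

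Against effector adults, neonatal cells had lower levels of many members. Of 83 members, 0 were higher and 42 lower (limma; 0 and 54 at an unadjusted p under 0.05). Over all 16257 genes, 5579 had an unadjusted p under 0.05 in either direction. The lower calls are 50.6% of those tested, beside 14.7% of all genes called lower and 5.93% called higher. The median difference was -0.47, beside -0.03 over all genes, and -0.58 beside -0.14 after centring. Higher calls made up 28.8% of all calls as deposited and 16.4% after centring. After centring 50 members were lower and 0 higher, and the share of all genes called was not counted there. On 41 members, or 49.4%, every neonatal array lay below every effector array, beside 16.2% of all genes. Without neonatal array 2 the count of lower members was 20, and without any other single array it was 29 to 43.

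By complex, the lower members were 16 of 32 in complex I, 2 of 4 in complex II, 4 of 7 in complex III, 8 of 15 in complex IV, 6 of 17 in complex V and 6 of 8 assembly factors. Of the 42, 24 were also among those higher in effector than in naive cells, and 5 were lower than in naive cells too. These comparisons share arrays, and the same overlaps over all genes were not counted. Ndufaf2 had neonatal levels of 4.67, 4.38 and 5.45, against effector levels of 6.21, 6.37 and 6.88, and fell by 1.62 ± 0.21, the largest difference of any member (SE, n = 3 and 6; limma adjusted p = 0.000149). In neonates its mean lay in the background range. Ndufaf8 fell by 1.07 ± 0.17 on levels of 6.72, 6.19 and 6.90 in neonates and 7.45, 7.72 and 7.82 in effector cells.

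Ndufb9, an accessory subunit at the far end of the membrane arm, lay at 9.10, 8.34 and 9.09 in neonates, against 9.66, 9.89 and 10.14 in effector cells, and fell by 1.04 ± 0.17. Cox6b1 lay at 8.31, 7.01 and 7.99 in neonates, against 8.61, 8.89 and 9.30 in effector cells, and fell by 1.16 ± 0.23. Cox7b, a small subunit of complex IV, lay at 10.09, 9.13 and 10.21 in neonates, against 10.60, 10.84 and 10.92 in effector cells, and fell by 1.01 ± 0.21. Neonatal array 2 was the lowest of the 3 for all of these genes, and each remained called without it, Cox7b at -0.67 and Cox6b1 at -0.78. Sdhd fell by 0.87 ± 0.19 on neonatal levels of 6.16, 6.85 and 6.82. For Sdhd the lowest array was neonatal array 1. Sdhb fell by 0.47, and in complex III Uqcrb fell by 0.65 and Uqcrfs1 by 0.57. Over 25 alternatives the call was lost in 9 for Sdhb, in 7 for Uqcrfs1 and in 0 for Uqcrb.

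Ndufs8 fell by 0.94 ± 0.22, and lost its call without neonatal array 2, at -0.68. Cox5a, which fell by 0.73 ± 0.17, and Cox7a2, by 0.52 ± 0.13, were also lost without that array, at -0.53 and -0.44. In complex V the membrane subunit Atp5k fell by 0.61 ± 0.14, the stalk subunit Atp5pb by 0.52 ± 0.12 and Atp5b by 0.52 ± 0.12. Atp5a1 and Atp5g3, the members higher in neonates than in naive adults, differed from effector cells by -0.09 ± 0.14 and -0.13 ± 0.14, with overlapping arrays. The 5 F1 subunits ranged from -0.52 for Atp5b to 0.03 for the gamma subunit Atp5c1 between neonatal and effector cells.

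Other genes of mitochondrial energy metabolism were followed in lists chosen with earlier results of these data known, and their counts stand beside 23.7% of all genes called higher and 10.9% called lower in effector against naive cells. Of 39 other assembly factors 13 rose in effector against naive cells and 3 fell, with a median of 0.39. They were led by Sco1, a copper carrier for complex IV, at 1.72 ± 0.25, Cmc2 at 0.89 ± 0.17 and the copper chaperone Cox17 at 0.84 ± 0.14. Among 19 genes of ubiquinone synthesis and electron carriers 7 rose and 0 fell, with Coq7 and Coq3, enzymes of ubiquinone synthesis, at 1.48 ± 0.20 and 1.21 ± 0.23 and the electron-transfer flavoprotein Etfa at 0.90 ± 0.14. Of 17 genes of the citric acid cycle and pyruvate dehydrogenase 11 rose and 0 fell, with a median of 0.56. Idh3a, a subunit of isocitrate dehydrogenase, rose by 1.32 ± 0.15, citrate synthase, Cs, by 1.19 ± 0.15 and fumarase, Fh1, by 1.08 ± 0.13.

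Of 9 tested carriers and porins 6 rose and 0 fell, with the outer-membrane channels Vdac1 and Vdac2 at 1.15 ± 0.14 and 0.96 ± 0.12 and the ADP/ATP carrier Slc25a4 at 0.90 ± 0.12. The uncouplers of this list with a feature, Ucp1 and Ucp3, lay in the background range and were not tested. Of 22 genes of protein import and mitochondrial chaperones 17 rose and 1 fell, led by the chaperone Hspd1 at 1.72 ± 0.17, the receptor Tomm70a at 1.44 ± 0.15 and Timm50 at 1.16 ± 0.23. Of 17 regulators of mitochondrial gene expression 6 rose and 1 fell. Tfam, which packages mitochondrial DNA, rose by 1.19 ± 0.26 and the transcription factor Tfb2m by 1.13 ± 0.33, while Polg2, the accessory subunit of the mitochondrial DNA polymerase, fell by 0.97 ± 0.16. Tfb2m was no longer called as the mean of its features, at 0.37. In neonates against naive cells, where 6.04% of all genes were called higher and 4.12% lower, these lists counted 1 higher and 4 lower for assembly factors, 1 and 1 for carriers of electrons, 3 and 0 for the citric acid cycle, 1 and 0 for carriers and porins, 3 and 2 for import and 2 and 0 for regulators.

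Against naive adults, 16 of 18 proliferation genes were higher in neonates and 18 of 18 in effector cells, with median differences of 1.56 and 2.91. Their mean level ran from 7.46 to 7.87 on neonatal, 8.65 to 9.12 on effector and 5.49 to 5.85 on naive arrays. These genes moved with the members between effector and naive cells, and their part in the result was not tested. Of markers of other cell types, 3 of 4 tested mast cell and basophil genes were higher in neonates than in naive adults, with Cpa3 at 2.43 ± 0.20, and their mean level was 5.07 to 5.69 on neonatal, 4.31 to 5.20 on effector and 4.46 to 4.61 on naive arrays. All 4 B cell markers with a feature lay in the background range throughout. T cell markers averaged 5.66 to 5.85 on neonatal, 5.06 to 5.35 on effector and 5.41 to 5.67 on naive arrays. In neonatal, effector and naive cells 4, 3 and 5 of the 7 T cell markers lay in the background range. The counts were 4, 4 and 5 of 5 for natural killer cell markers and the same for neutrophil markers. In the same cells this held for 4, 3 and 5 of 7 epithelial markers, 4, 4 and 6 of 6 fibroblast markers, 5, 5 and 7 of 8 macrophage markers, and 5 of 6 endothelial markers each time.

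Other marker genes changed too. In neonates 2 of 7 epithelial markers were higher than in naive and than in effector cells, among them the surfactant gene Sftpc, by 1.98 ± 0.46 and 2.67 ± 0.46, and 3 of 3 tested fibroblast markers were higher than in effector cells. The mean level of the epithelial markers was 5.02 to 5.27 on neonatal, 4.46 to 5.11 on effector and 4.61 to 5.05 on naive arrays, and that of the fibroblast markers was 4.32 to 4.48 on neonatal, 3.78 to 3.93 on effector and 3.83 to 4.19 on naive arrays. The T cell receptor component Cd3e was higher in neonates than in naive cells by 1.21 ± 0.25. In effector against naive cells 3 of 6 endothelial markers fell, Ptprb by 1.24 ± 0.21, Cldn5 by 1.06 ± 0.18 and Tek by 0.66 ± 0.20, and the endothelial mean was 4.56 to 4.93 on effector and 4.67 to 5.64 on naive arrays. In the same comparison the T cell genes Cd3g and Cd8b1 fell by 0.58 ± 0.14 and 0.56 ± 0.18, the mast cell gene Cpa3 by 0.90 ± 0.16, the neutrophil gene S100a9 by 0.63 ± 0.18 and the natural killer cell gene Klrb1c by 0.63 ± 0.21. Of the macrophage genes, Cd68 rose by 0.63 ± 0.17, while Mrc1 and Adgre1 fell by 0.57 ± 0.19 and 0.47 ± 0.15. Of the genes named for effector against naive cells, Cd3g, Cpa3 and Cd68 averaged above the background range in both groups. Ptprb, Cldn5, Tek, Cd8b1, S100a9, Klrb1c, Mrc1 and Adgre1 averaged within it in both, and its limit was itself lower on effector arrays (4.63) than on naive arrays (5.46). The part of such cells and of background in the differences was not tested.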

How the data were processed

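RNA of lung ILC2s was hybridised to 15 Affymetrix arrays after Trizol extraction and biotin labelling with the Nugen Encore kit, per the labels' protocols. The deposited log2 values were made by the authors with Affymetrix Expression Console and RMA, per the submitters' processing notes; versions and scan batches are not given there. RMA corrects background, equalises the distributions of arrays and summarises probes, so levels are relative to the other transcripts of an array. The deposited arrays still differed in their median level, at 4.50 to 4.63 on neonatal, 4.44 to 4.50 on effector and 4.56 to 4.64 on naive arrays. Of 41345 features, 23521 name 1 gene, 1814 several and 16010 none. The brightest feature of each gene with a feature of its own was used, if above percentile 40 of its array in at least 3 arrays. limma 3.58.1 (R 4.3.3) was fitted to all 5 groups and 16257 genes with 8 comparisons, sexes weighted equally, 10 residual and 5.05 prior degrees of freedom, and Benjamini-Hochberg adjustment over all genes. Genes were called at an adjusted p under 0.05. The fit was tested on simulated data.

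The members and lists were chosen with earlier results of these data known. The text names, by rule, up to 4 called members per complex with the largest difference between effector and naive cells and up to 2 in each neonatal comparison, the most negative member of each complex, fixed core subunits, the paralogues, Atpif1, called members between sexes, and up to 3 called genes per list. For the proliferation and ILC2 lists the differences of these genes are not printed, and core subunits and paralogues are not printed in every comparison. Other genes are named to complete a count or were chosen after their values were seen, as were Cyc1, Atp5h and the genes that lost a call. Alternatives were filters, scalings, priors, array weights, the replicate block, a fit of only the arrays compared, the mean of a gene's features, a 2-fold limit and leaving out each array; leaving out the 3 arrays least correlated with their group was added after seeing the data. The number of arrays limits the precision. Promoters are RefSeq windows of GRCm38.p6, without the 50 bases after the start. Figures were drawn with matplotlib 3.10.9.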

Additional observations from a re-analysis of the deposited data

Results flagged for a closer look

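In 7 of 110 sets of 6 arrays 1 array stood farther from the others than Dixon's test allows, and chance alone flags about 1 set in 20. Atp5b was lowest on effector female array 1, at 11.73 with the next at 11.87, and Uqcrc1 was lowest on the same array, at 9.40 with the next at 9.66. Uqcrh was highest on effector male array 3, at 7.13 with the next at 6.75. Among naive arrays, Cox5b was lowest on male array 2, at 8.17 with the next at 8.73, Ndufs1 on male array 1, at 5.75 with the next at 6.26, and Atp5pb on male array 3, at 9.38 with the next at 9.50. Uqcrb was highest on naive female array 3, at 10.86 with the next at 10.68.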

How the results depend on the processing

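Over 158 named results and 3939 alternative values, 3679 kept direction and call, 207 lost the call, 35 gained it and 18 turned in sign. The count of members called between effector and naive cells was 36, with 32 to 41 when single arrays were left out and 3 at a 2-fold limit. In females it was 9, with 3 to 12 without single arrays, 18 after centring, 20 with array weights (18 higher and 2 lower) and 2 at a 2-fold limit. In males it was 37, with 23 to 40 without single arrays and 9 at a 2-fold limit. Between neonatal and naive cells it was 9, with 4 to 13 without single arrays, 1 with array weights, 1 from only the arrays compared, 0 at a 2-fold limit (limma) and 4 without the 3 arrays least correlated with their group. Between neonatal and effector cells it was 42, with 20 to 43 without single arrays, 26 after quantile normalization (1 higher and 25 lower), 23 with array weights, 5 at a 2-fold limit and 25 without those 3 arrays. After quantile normalization 29 members were higher and 2 lower in effector than in naive cells, Cox7a2l at -0.45 among the lower.

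The signs that turned belonged to uncalled differences near 0, and the cause was not tested. Between effector and naive cells Cox4i2 was 0.057 after centring, 0.041 after quantile normalization and -0.24 to 0.035 without single arrays, Ndufaf3 was -0.0050 after quantile normalization and -0.035 without the 3 arrays, and Uqcrh was 0.088 after centring and -0.13 to 0.017 without single arrays. Between neonatal and effector cells Cox7a2l was -0.027 to 0.19 without single arrays. Between neonatal and naive cells Atpif1 was -0.070 after quantile normalization and -0.071 to 0.21 without single arrays, Cox4i1 was -0.046 to 0.076, and Sdha was -0.044 after quantile normalization and -0.027 to 0.10 without single arrays. Replicate numbers did not pair the arrays: 0 of 30 same-numbered pairs deviated together at r over 0.1 (-0.11 to 0.099). With the replicate number as a block, the 8 comparisons called 37, 8, 36, 0, 7, 35, 0 and 0 members, and Atp5g2 between effector and naive cells was lost (limma adjusted p = 0.0526). Arrays carry no depth, and 12 tested members lay in the background range in at least 1 condition.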

Other observations

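Several genes of the complexes were measured by 10 features shared with another gene, whose signals cannot be told apart, and 9 members had a second feature of their own. The feature of Uqcr10, a complex III subunit, and Gm6293 lay between 7.10 and 7.64 on effector arrays, against 6.12 to 6.69 on naive arrays. The brighter of 2 features of Cox6c and Gm6265 differed by 0.28 between effector and naive cells and by -0.94 between neonatal and effector cells, and the dimmer one by 0.09 and -0.10. The feature of Ndufb2 and the unrelated gene Adck2 differed by 0.50 between effector and naive cells. Some of these features opposed those used. The feature of Ndufs1 and Ino80dos lay between 4.39 and 4.74 on effector arrays, against 5.29 to 6.62 on naive arrays, a difference of -1.31 beside 0.43 from the feature of Ndufs1 alone. The feature of Ndufs5 and Ndufs5-ps differed by 0.68, beside -0.34 from the feature of Ndufs5 alone, and by -1.45 between neonatal and effector cells. The dimmer feature of Ndufa11 differed by -0.26 between effector and naive cells, beside 0.73 from the feature used. Between effector and naive cells the other dimmer features had the same sign as those used. That of Atp5h, with means in the background range in every condition, differed by -0.77 beside -0.15. The dimmer features of Cox5b, Cox7b and Ndufa12 differed by 0.90, 0.38 and 0.96, beside 1.13, 0.35 and 0.53. Between neonatal and naive cells some signs were opposed. The dimmer features of Cox5b, Ndufa12, Ndufa8, Atp5e and Ndufa11 differed by -0.15, 0.56, 0.41, 0.20 and -0.71. The features used differed by 0.31, -0.30, -0.19, -0.25 and 0.37. Between neonatal and effector cells those of Ndufa8 and Atp5h were opposed, at 0.34 and 0.63 beside -0.47 and -0.06. The remaining dimmer features had the same sign. These differences carry no test.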
